A study of Mus musculus with 5 samples.

Results

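The respiratory chain and the ATP synthase are built from 5 protein complexes of the inner mitochondrial membrane, and 92 of the 17323 genes tested belonged to them. The 92 genes were taken by name, as every probe set whose annotation gives exactly 1 symbol that starts with Nduf, Sdha to Sdhd, Uqcr, Cox4 to Cox8 or Atp5, or is Cyc1, with the brightest probe set of each gene by mean log2 value. By their known roles 39 were placed in complex I, 8 in complex II, 9 in complex III, 19 in complex IV and 17 in complex V, and 11 of the 92 encode assembly factors and not subunits. Expression was measured on 5 Affymetrix Mouse Genome 430 2.0 arrays of RNA from pro-B cells, the B220+IgM-CD43+CD24+ fraction of bone marrow, which had been isolated by FACS from mice aged 9 months. The 2 *Mef2c*-deficient samples had the genotype Vav-Cre *Mef2c* fl/fl, with Cre expressed in haematopoietic cells, where it deletes the gene of the transcription factor MEF2C. The 3 control samples came from mice whose genotype is labelled only as control. By the methods of the study a control mouse was Vav-Cre *Mef2c* fl/+, or had no Cre and was *Mef2c* fl/+ or *Mef2c* fl/fl, so that a control may carry the floxed allele, Vav-Cre and 1 deleted copy. The samples were independent sorts, and the sources used here do not say whether an array held RNA of 1 mouse or of several.

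Complex I oxidizes NADH and complex II oxidizes succinate, and both pass electrons to ubiquinone. Complex III moves them on to cytochrome c, complex IV reduces oxygen, and complex V makes ATP from the proton gradient that complexes I, III and IV build. Nearly all subunits are encoded in the nucleus, while a few of the membrane core are encoded in mitochondrial DNA. Dividing lymphocyte progenitors use respiration both for ATP and for the synthesis of nucleotides, since dihydroorotate dehydrogenase delivers its electrons to ubiquinone.

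Some properties of the arrays bear on every value below. *Mef2c* itself had deposited values of 14006, 20854 and 17219.7 on the 3 control arrays and 7379 and 6219 on the *Mef2c*-deficient arrays, without overlap of the groups. *Mef2c*-deficient replicate 2 stood apart in markers of other cells. The summed value of 11 measured T and NK cell markers was 65146 on it, against 6996 on replicate 1 and 13166 to 19949 on the control arrays, and *Cd3e* was 13843 against 232 to 387 on the other 4 arrays. Of these 11 markers 7 were highest on replicate 2, while *Cd247* and *Gzma* were below all controls there, at 6080 and 71.3, and *Gzma* fell. Of 6 measured erythroid markers *Slc4a1*, the red cell anion exchanger, rose, with 188, 208 and 234 in control and 855 and 2188 in *Mef2c*-deficient pro-B cells (adjusted p = 0.0895), *Car2* fell, with 72524, 41123 and 48530.2 in control and 18009.9 and 12357 in *Mef2c*-deficient pro-B cells (adjusted p = 0.0907), and 4 did not pass, among them *Alas2* at 2200.2 on replicate 2 and 375 to 379.98 on the other arrays. The summed erythroid value was 19375 and 16992 on *Mef2c*-deficient replicates 1 and 2 and 41829.9 to 73196 on the control arrays. Most of this sum was *Car2* on every array, so its direction is that of *Car2* and not of the list. Of the 6 erythroid markers 3 were highest on replicate 2, and *Car2* alone was below all controls there. The summed value of 11 measured B-lineage markers on replicate 2 was 743755, against 1437654 on replicate 1 and 1069635 to 1761303 on the control arrays. This sum leans on *Cd24a*, which was 152861 on replicate 2 and 528504 to 683783 on the other arrays. On replicate 2, 6 of the 11 markers were below all controls, among them *Ebf1* at 3026, and 1, *Ptprc*, was the highest of all arrays. *Cd79a*, which encodes a chain of the B-cell receptor complex, was 153021 or more on all arrays. The summed value of 13 myeloid markers, mostly neutrophil granule genes, was 2503493 and 5716813 on *Mef2c*-deficient replicates 1 and 2 and 2324608 to 4847091 on the control arrays. On *Mef2c*-deficient replicate 1, 15 probe sets for bacterial hybridisation controls had a median of 2.69 above the control mean on the log2 scale, where the control arrays lay between −0.87 and 0.64 and replicate 2 at 0.72. The part of these differences in the results was not tested, and in sorted bulk samples fewer cells of a type and less RNA per cell cannot be told apart.

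With the values as deposited, most respiratory chain genes had negative log2 fold changes in *Mef2c*-deficient pro-B cells, as did most abundant transcripts in general. Of the 92 genes 25 fell, none rose and 67 did not pass, at a fold change of at least 2 in deposited value and an unadjusted p of at most 0.05 from limma. The 25 genes are 27.2% of the 92, where 16.7% of all genes tested fell and 9.65% rose. If the deposited values are powers of e, as their range implies, that threshold is 1.62-fold in signal, and at a fold of 2 in signal 15 of the 92 fell, as did 10.6% of all genes. The log2 fold change was negative in 79 of the 92 genes, with a median of −0.84, against 0.04 over all genes. The 2 *Mef2c*-deficient values were below all 3 controls in 56 of the 92 genes (60.9%), as in 28.4% of all genes. None of the 92 genes had an adjusted p under 0.05 from limma, and none of all 17323 genes did. By the methods' unpaired test none of the 92 had an adjusted p under 0.05, and 12 of all genes did. An unadjusted p under 0.05 from limma was seen in 34 of the 92 genes and in 5592 of the 17323. At an adjusted p under 0.10 from limma 10 of the 92 genes (10.9%) were lower, as were 8.16% of all genes.

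**Figure D1:**
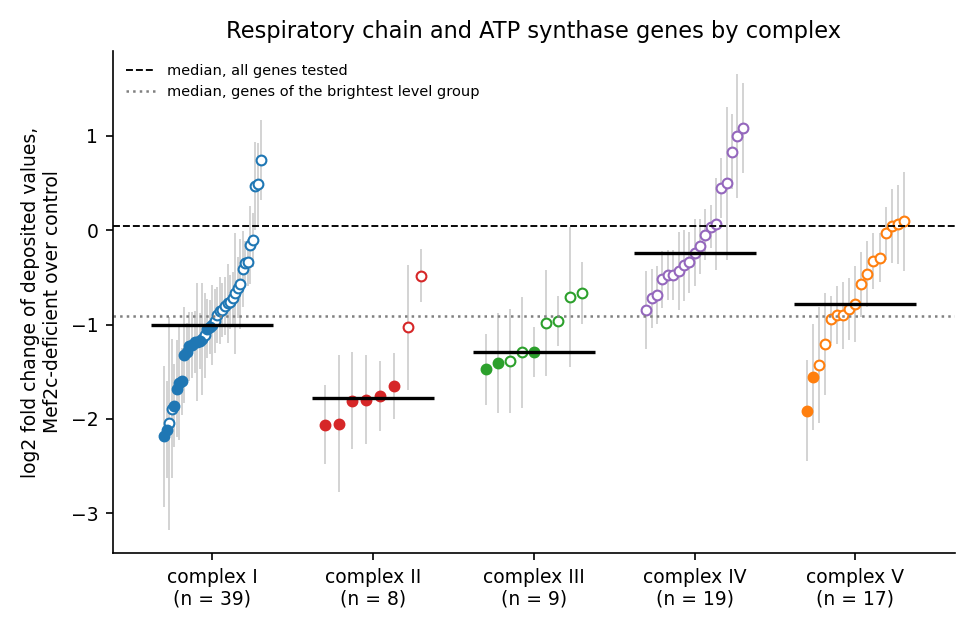
Log2 ratio of deposited values, *Mef2c*-deficient over control, of each gene (points) with its standard error (grey bars), by complex. Filled points fell and open points did not pass, thick lines are medians of a complex, the dashed line is the median of all genes tested and the dotted line that of genes in the brightest of 10 level groups. Medians run from −1.77 in complex II to −0.24 in complex IV.

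These counts have to be read against the level of the transcripts. When all genes were placed in 10 groups by mean level, 63 of the 92 lay in the brightest group. There the 1733 genes had a median log2 fold change of −0.91, and that of the 63 respiratory genes was −0.85. In this group 16 of the 63 genes fell (25.4%), and 32.8% of all genes in the group did. The 2 *Mef2c*-deficient values were below all 3 controls in 43 of the 63 genes (68.3%) and in 62.6% of all genes of the group. A share of lowered genes near that of abundant transcripts in general is therefore what these 63 genes showed. The remaining 29 genes, in the other groups, had a median log2 fold change of −0.61, and 9 of them fell (31.0%). In groups 9 and 8, numbered upward by level, 4 of 5 and 2 of 6 genes fell, against 40.9% and 34.1% of all genes. In groups 6 and 4, 2 of 2 and 1 of 5 fell, against 15.6% and 5.37%. In groups 7, 5, 3 and 1 none of the 3, 5, 2 and 1 genes fell, against 25.3%, 9.52%, 2.31% and 0.173%. Whether these genes differ from their groups was not tested.

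**Figure D2:**
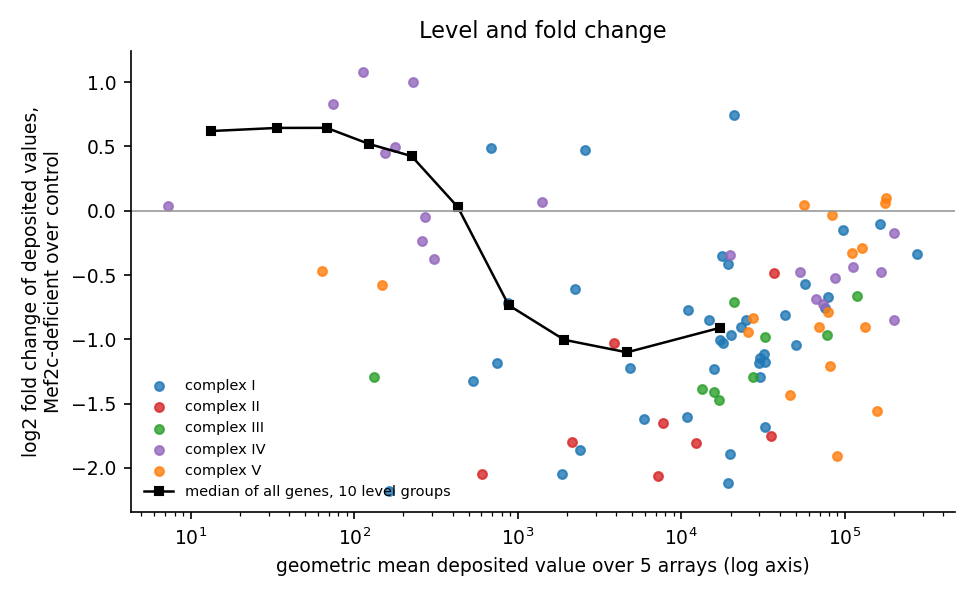
Log2 ratio of deposited values, *Mef2c*-deficient over control (vertical axis), against the geometric mean deposited value over the 5 arrays (horizontal log axis). Coloured points are the 92 genes by complex and black squares are the medians of all genes in 10 groups by level. Most respiratory genes lie in the range where the median of all genes is −1.10 to −0.73, and the complex II genes lie mostly under the black line.

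The scaling of the arrays also decided most calls. Of the 25 genes that fell, 3 still fell after a further quantile normalization (*Ndufb4*, *Sdhaf3* and *Atp5g3*), 2 after cyclic loess (*Ndufb4* and *Sdhaf3*) and 4 when each array was centred on 9 housekeeping genes (*Ndufa10*, *Ndufaf4*, *Sdha* and *Sdhc*). All 25 fell when each array was centred on its median. The median over the 92 genes was −0.21, −0.02, −0.12 and −0.84 under these scalings. The housekeeping scaling moved the median of all genes to 0.76. Centring shifts all genes of an array alike, so it cannot change the median of the respiratory genes minus that of all genes. This difference was −0.88 as deposited and under both centrings, −0.24 after further quantile normalization and −0.03 after cyclic loess. Leaving out 1 array changed the number that fell to between 15 and 33, with 15 without control replicate 1. The calls among the 92 genes are therefore given below, most of them with the 5 array values behind them.

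**Figure D3:**
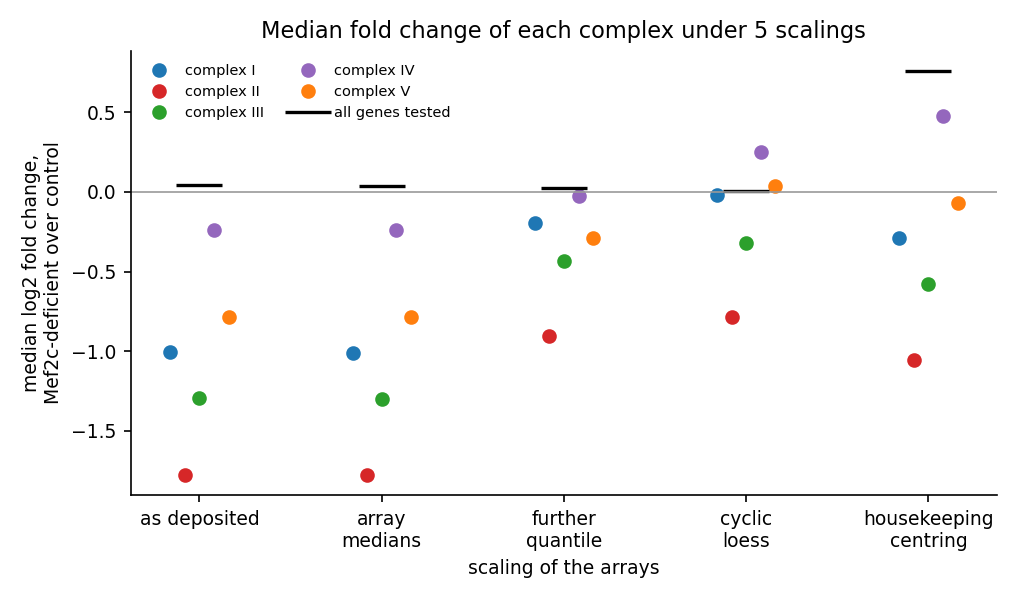
Median log2 fold change of each complex (coloured points) and of all genes tested (black bars) with the values as deposited and under 4 other scalings of the arrays. Complex II is lowest under each of the 5, while complex IV lies above 0 after cyclic loess and housekeeping centring and complex V above 0 after cyclic loess.

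Complex II, succinate dehydrogenase, is also an enzyme of the citric acid cycle. Of its 8 genes 6 fell (75%) and 2 did not pass, with a median log2 fold change of −1.77. In all 8 the 2 *Mef2c*-deficient values were below all 3 controls. Over all genes these shares were 16.7% and 28.4%. The 8 genes lie in level groups 6 to 10, where 15.6% to 40.9% of all genes fell by group. In the brightest group, which holds 3 of the 8, the groups did not overlap in this direction in 62.6% of all genes. Whether complex II differed from the other complexes was not tested.

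*Sdhc*, which encodes a membrane anchor of the complex, had deposited values of 19971, 10307 and 10243 in control and 3711 and 2551 in *Mef2c*-deficient pro-B cells. Its log2 fold change was −2.06 ± 0.42 (standard error) (adjusted p = 0.0907), or 2.69-fold lower in signal on the reading of the values given above. The values of *Sdha*, the flavoprotein that holds the site of succinate oxidation, were 41065, 55068 and 82783 in control and 17494 and 16479 in *Mef2c*-deficient pro-B cells. The 2 *Mef2c*-deficient arrays lay close together and far below the lowest control array, and the log2 fold change was −1.75 ± 0.37 (adjusted p = 0.0907). *Sdhd*, the other membrane anchor, was at 22315, 16669 and 22581 in control and 9805 and 3452 in *Mef2c*-deficient pro-B cells, with a log2 fold change of −1.80 ± 0.51 (adjusted p = 0.107). Replicate 2 was the lower of the 2 for *Sdhd*. *Sdhb*, the iron-sulfur subunit, was the exception among the 4 subunits. It was measured at 42145, 48532 and 35836 in control and 26447 and 34024 in *Mef2c*-deficient pro-B cells, and the log2 fold change of −0.48 ± 0.28 did not pass (adjusted p = 0.255).

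Of the 4 assembly factors of complex II 3 fell. The 4 lie in level groups 6, 8 and 9, where 15.6%, 34.1% and 40.9% of all genes fell. *Sdhaf2*, needed for the attachment of FAD to SDHA, had values of 12601, 10245 and 14321 in control and 5132 and 2965 in *Mef2c*-deficient pro-B cells, with a log2 fold change of −1.65 ± 0.35 (adjusted p = 0.0907). *Sdhaf1*, which helps to place iron-sulfur clusters in SDHB, was at 2648, 3868 and 4301 in control and 1555 and 665 in *Mef2c*-deficient pro-B cells and fell by 1.80 on the log2 scale (adjusted p = 0.1). *Sdhaf3*, which also acts on SDHB, was at 888, 1043 and 1317 in control and 577 and 115 in *Mef2c*-deficient pro-B cells. Most of its log2 fold change of −2.05 ± 0.73 (adjusted p = 0.137) lay in replicate 2, where it was below the median of the array. *Sdhaf4*, which binds flavinylated SDHA, was at 3986, 12082 and 2871 in control and 2561 and 2499.8 in *Mef2c*-deficient pro-B cells and did not pass (log2 fold change −1.03 ± 0.67, adjusted p = 0.287), with control replicate 2 well above the other 4 arrays. The calls of *Sdha*, *Sdhc*, *Sdhaf1* and *Sdhaf2* held when any 1 array was left out. That of *Sdhd* ended without control replicate 1 (−1.74) or 3 (−1.73), and that of *Sdhaf3* without control replicate 1 (−2.18), 2 (−2.07) or 3 (−1.90) and without *Mef2c*-deficient replicate 2 (−0.89).

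**Figure D4:**
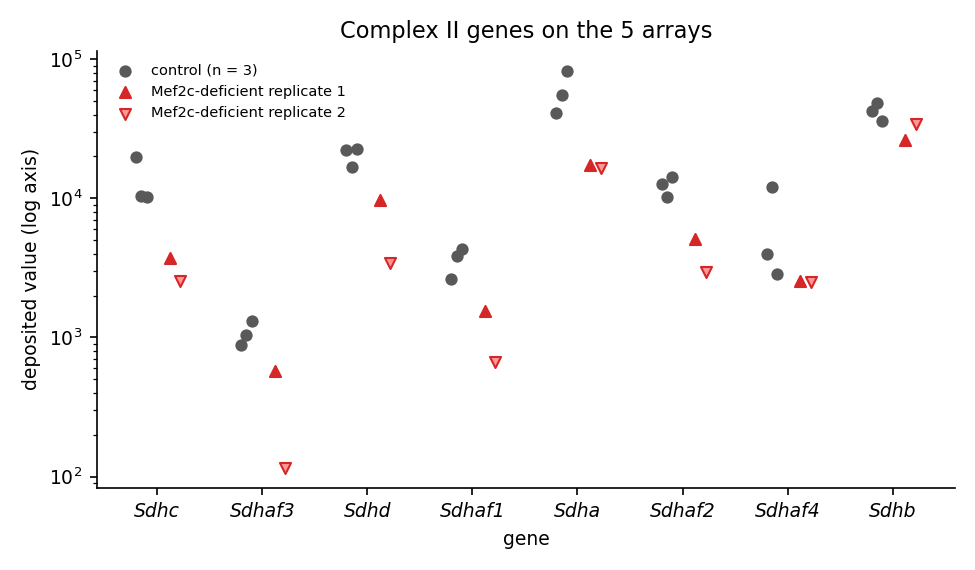
Deposited values (log axis) of the 8 complex II genes on each of the 5 arrays, with control arrays as grey circles and *Mef2c*-deficient replicates 1 and 2 as upward and downward triangles. Both triangles lie below all 3 circles for every gene, by the narrowest margin for *Sdhb* and *Sdhaf4*.

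The promoters of these genes were examined for motifs that a shared regulator could bind. Promoter sequence was matched by gene ID for 76 of the 92 genes, from 250 bases before to 50 after the start site (RefSeq, GRCm38.p6). The core of the motif bound by nuclear respiratory factor 1, written CGCANGCG, occurred on either strand in 29 of the 76 (38.2%), against 14.8% of 13707 tested genes with a promoter. The windows below show it in *Sdha*, where it occurs 3 times, in *Sdhd* and in the complex I assembly factor gene *Ndufaf4*, which were picked, after the values were seen, from the genes that fell and hold it. Each is read 5′ to 3′ on the strand of the gene, with the motif in capitals.
*Sdha*, chr13:74350241-74350365, minus strand: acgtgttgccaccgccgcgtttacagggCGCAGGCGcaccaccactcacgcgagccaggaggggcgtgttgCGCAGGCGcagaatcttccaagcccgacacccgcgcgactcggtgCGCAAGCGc
*Sdhd*, chr9:50603850-50603974, minus strand: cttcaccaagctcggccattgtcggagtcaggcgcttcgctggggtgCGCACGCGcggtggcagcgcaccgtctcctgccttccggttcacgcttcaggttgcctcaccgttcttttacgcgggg
*Ndufaf4*, chr4:24897933-24898032, plus strand: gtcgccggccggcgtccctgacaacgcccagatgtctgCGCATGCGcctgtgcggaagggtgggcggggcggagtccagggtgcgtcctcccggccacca
The first window and the second end 1 base before the start site and the third ends 51 bases before it. The motif was in 9 of the 21 genes that fell and have a promoter, and in 20 of the 55 others. The motif CCGGAAG of ETS factors, to which GABPA belongs, was in 22 of the 76 promoters (28.9%) and in 15.1% of all. The motif AAGATGGC of YY1 was in 9 (11.8%) and in 4.07% of all. The letters searched for NRF1 and YY1 were settled after several forms had been counted. Of the stricter forms, CGCATGCG was in 10 (13.2%) and in 3.26% of all, and CGCANGCG with G before and C after it in 19 (25%) and in 8.66%. With G before and C after, CGCATGCG was in 6 (7.89%) and in 1.75%. The YY1 forms AAGATGGCG and AANATGGCG were in 6 (7.89%) and 10 (13.2%) and in 2.50% and 4.23% of all, and AAGATGGCG followed by G was in 4 (5.26%) and in 1.61%. GGGCGG, bound by SP1, was in 38 (50.0%) and in 57.0% of all, and TATAAA in 9 (11.8%) and in 11.6%. CCAAT was in 33 (43.4%) and in 42.0% of all. The MEF2 consensus was in 0 of the 76 promoters and in 2.49% of all. A match shows that the letters are in the window and not that a factor binds there.

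The genes of complex I that fell encode parts of its catalytic core, accessory subunits and assembly factors. Of its 39 genes 14 fell (35.9%), none rose and 25 did not pass, with a median log2 fold change of −1.005, and in 27 the 2 *Mef2c*-deficient values were below all 3 controls. Of the 28 genes in the brightest level group 32.1% fell, near the 32.8% of all genes there. The number that fell was 8 without control replicate 1 or control replicate 2 and 9 without *Mef2c*-deficient replicate 2. Among the 6 measured genes of the core that carries the electrons in the matrix arm 4 fell, and in all 6 the groups did not overlap. Both *Mef2c*-deficient values were below all 3 controls in 69.2% of the complex I genes and in 28.4% of all genes. In the brightest level group, which holds all of the 6 but *Ndufs1*, these shares were 71.4% and 62.6%.

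*Ndufv1*, which binds NADH and the first acceptor FMN, had values of 24868, 27543 and 15981 in control and 11420 and 7861 in *Mef2c*-deficient pro-B cells and a log2 fold change of −1.23 ± 0.36 (adjusted p = 0.112). *Ndufs1*, which holds iron-sulfur clusters of the chain, was at 10904, 9662 and 7484 in control and 5782 and 1571 in *Mef2c*-deficient pro-B cells, and the log2 fold change was −1.62 ± 0.61 (adjusted p = 0.148). For *Ndufs7*, with the last iron-sulfur cluster before ubiquinone, the values were 42662, 70068 and 46348 in control and 26246 and 9909 in *Mef2c*-deficient pro-B cells, and the log2 fold change was −1.68 ± 0.51 (adjusted p = 0.116). Replicate 2 was well below replicate 1 for *Ndufs1* and *Ndufs7*. *Ndufs3*, a core subunit without a cofactor, was at 25043, 28464 and 19283 in control and 12508 and 11031 in *Mef2c*-deficient pro-B cells and fell by 1.03 on the log2 scale (adjusted p = 0.106). The iron-sulfur subunits *Ndufv2* and *Ndufs8* did not pass. Their log2 fold changes were −1.11 ± 0.45 and −0.85 ± 0.29, with adjusted p = 0.161 and adjusted p = 0.132. The calls of these core genes depended on single arrays. That of *Ndufv1* ended without control replicate 1 (−1.15) or 2 (−1.07) and without *Mef2c*-deficient replicate 2 (−0.96), that of *Ndufs3* without control replicate 1 (−0.996) or 2 (−0.90) and without *Mef2c*-deficient replicate 2 (−0.94), that of *Ndufs7* without control replicate 2 (−1.46) or 3 (−1.76) and without *Mef2c*-deficient replicate 2 (−0.98), and that of *Ndufs1* without control replicate 1 (−1.50), 2 (−1.58) or 3 (−1.77) and without *Mef2c*-deficient replicate 2 (−0.68).

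Of 7 assembly factors of complex I 3 fell (42.9%), and all 7 lie in level groups 7 to 10, where 33.3% of all genes fell. *Ndufaf4*, which acts in the early matrix arm intermediate, was at 5349, 3511 and 3501 in control and 761 and 1625 in *Mef2c*-deficient pro-B cells, with a log2 fold change of −1.86 ± 0.44 (adjusted p = 0.094). Here replicate 1 was the lower array. *Ndufaf2*, which joins a late intermediate, was at 20249.9, 17267 and 13846 in control and 7282 and 4277 in *Mef2c*-deficient pro-B cells, with a log2 fold change of −1.60 ± 0.35 (adjusted p = 0.0934). *Ndufaf3*, a partner of NDUFAF4, had a log2 fold change of −1.22 ± 0.35 (adjusted p = 0.109) and its call ended without control replicate 3 (−1.10) and without *Mef2c*-deficient replicate 2 (−0.80). The calls of *Ndufaf2* and *Ndufaf4* held when any 1 array was left out. *Ndufaf5*, which modifies NDUFS7, was at 3758, 3161 and 3018 in control and 3018 and 211 in *Mef2c*-deficient pro-B cells. Replicate 1 equalled the lowest control, so the groups touched, and replicate 2 was 15.6-fold below the control mean in deposited value. The log2 fold change of −2.05 ± 1.13 did not pass (adjusted p = 0.243). *Ndufaf7*, which methylates a core subunit, was at 2468, 2228 and 2118 in control and 1930.5 and 5111 in *Mef2c*-deficient pro-B cells. It was above the controls on replicate 2 alone, and did not pass (log2 fold change 0.47 ± 0.47, adjusted p = 0.455). It rose after cyclic loess (1.40) and further quantile normalization (1.34) and without *Mef2c*-deficient replicate 1 (1.17).

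Among 26 accessory subunits of complex I 7 fell (26.9%). Of all genes 16.7% fell, and 32.8% of those in the brightest level group, which holds most of the 26. *Ndufa10*, of the membrane arm, was at 33180.1, 38958 and 32595 in control and 13899.7 and 4654 in *Mef2c*-deficient pro-B cells, with a log2 fold change of −2.11 ± 0.51 (adjusted p = 0.0958). *Ndufb3*, also of the membrane arm, was at 42108, 57195 and 38427 in control and 22002 and 18179 in *Mef2c*-deficient pro-B cells, with a log2 fold change of −1.18 ± 0.30 (adjusted p = 0.0974). The other membrane arm genes that fell were *Ndufb10* (−1.29), *Ndufb6* (−1.19), *Ndufb8* (−1.33) and *Ndufc2* (−1.05), each with its log2 fold change, at an adjusted p between 0.0948 and 0.152. *Ndufb4* had the most negative log2 fold change of all 92 genes, −2.18 ± 0.75 (adjusted p = 0.131), but its probe set was dim, at 195, 172 and 797 in control and 71.2 and 60.8 in *Mef2c*-deficient pro-B cells, and below the array median on 4 of 5 arrays. Another probe set, listed under several *Ndufb4* copies, was left out by the choice of genes and is given among the other observations. *Ndufa10* and *Ndufb3* held their calls when any 1 array was left out. The call of *Ndufb10* ended without *Mef2c*-deficient replicate 2 (−0.95), that of *Ndufb6* without control replicate 1 (−0.97) and without *Mef2c*-deficient replicate 2 (−1.03), that of *Ndufc2* without control replicate 1 (−1.01) or 2 (−1.05) and without *Mef2c*-deficient replicate 1 (−0.68), and that of *Ndufb4* without *Mef2c*-deficient replicate 1 (−2.30) or 2 (−2.07). The call of *Ndufb8* ended in each of the 5 fits with 1 array left out, at log2 fold changes between −1.60 and −0.90.

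The accessory subunits that did not pass ranged from *Ndufa9* at −1.89 to *Ndufa5* at 0.75. *Ndufb7* was at 282985, 316715 and 315349 in control and 215382 and 268961 in *Mef2c*-deficient pro-B cells, and the log2 fold change was −0.34 ± 0.25 (adjusted p = 0.332). *Ndufa13* was at 157359, 157359 and 197450.3 in control and 135143 and 184734 in *Mef2c*-deficient pro-B cells, and *Mef2c*-deficient replicate 2 lay within the control range. *Ndufa5*, a matrix arm subunit, was at 21519, 21519 and 10905 in control and 34836 and 23749 in *Mef2c*-deficient pro-B cells. Both *Mef2c*-deficient arrays were above all controls for *Ndufa5*, and it did not pass at a log2 fold change of 0.75 ± 0.43 (adjusted p = 0.251). It rose at log2 fold changes of 1.74 and 1.58 after cyclic loess and further quantile normalization and at 1.46 with housekeeping centring. The third positive gene of complex I beside *Ndufa5* and *Ndufaf7* was *Ndufb2* (0.49 ± 0.43, adjusted p = 0.404), whose values were 601, 601 and 601 in control and 1313 and 543 in *Mef2c*-deficient pro-B cells, identical on the control arrays. *Ndufb2* rose with housekeeping centring (1.21) and without *Mef2c*-deficient replicate 2 (1.13).

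The genes of complex III that fell encode its large core subunits and cytochrome c1. Of its 9 genes 3 fell (33.3%), none rose, and all 9 log2 fold changes were negative, at a median of −1.29. Of the 9 genes 8 lie in the brightest level group, where 32.8% of all genes fell and 91.7% had a negative log2 fold change. *Cyc1*, which encodes cytochrome c1, was at 38221, 44337 and 35599 in control and 18033 and 14196 in *Mef2c*-deficient pro-B cells, with a log2 fold change of −1.29 ± 0.26 (adjusted p = 0.0907). The groups were well separated for *Cyc1*, and its call held when any 1 array was left out. *Uqcrc2*, a core subunit, was at 32227, 19839 and 26223 in control and 11999 and 7077 in *Mef2c*-deficient pro-B cells, with a log2 fold change of −1.47 ± 0.37 (adjusted p = 0.0984). *Uqcrc1*, its partner, was at 24307, 26828 and 19512 in control and 15234 and 5091 in *Mef2c*-deficient pro-B cells, with a log2 fold change of −1.41 ± 0.53 (adjusted p = 0.147). The call of *Uqcrc2* ended without *Mef2c*-deficient replicate 2 (−1.09), and that of *Uqcrc1* without control replicate 1 (−1.38), 2 (−1.31) or 3 (−1.54) and without *Mef2c*-deficient replicate 2 (−0.62). *Uqcrfs1*, the Rieske iron-sulfur protein, was at 20319, 23253 and 15851 in control and 13232 and 4225 in *Mef2c*-deficient pro-B cells and did not pass (log2 fold change −1.39 ± 0.55, adjusted p = 0.158), although the groups did not overlap.

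The 5 accessory subunits of complex III did not pass, at log2 fold changes between −1.29 and −0.66. *Uqcr10* was at 33001, 40830.5 and 57077 in control and 12401 and 37523 in *Mef2c*-deficient pro-B cells, and replicate 1 was far below the controls while replicate 2 lay among them. *Uqcrb* was at 110389, 83856 and 110927 in control and 48692 and 54957 in *Mef2c*-deficient pro-B cells, with both *Mef2c*-deficient arrays below the controls, and missed the fold threshold at −0.96 ± 0.27 (adjusted p = 0.106). *Uqcrq* was dim in both of its probe sets, which differed in sign, at log2 fold changes of −1.29 for the one used here and 1.04 for the other. Of complex III 5 genes fell without *Mef2c*-deficient replicate 1.

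Complex IV, cytochrome c oxidase, had no gene that passed. None of its 19 genes fell or rose, the median log2 fold change was −0.24, and none had an unadjusted p under 0.05 from limma or from the methods' unpaired test. This does not show that the values were alike, and the difference between complex IV and the other complexes was not tested. Without *Mef2c*-deficient replicate 2, *Cox4i1* and *Cox6b1* fell at −1.03 and −1.02, and *Cox4i2*, *Cox5b* and *Cox7c* rose at 1.98, 1.31 and 1.67. With housekeeping centring *Cox4i2*, *Cox5b*, *Cox7c* and *Ndufa4l2* rose at 1.71, 1.55, 1.80 and 1.16. *Cox7c* also rose with centring on array medians (1.08), and *Cox6a2* without *Mef2c*-deficient replicate 1 (1.75). Of the 19 genes 9 were in the brightest level group, all 9 log2 fold changes were negative, and in 6 of them (66.7%) the groups did not overlap. Of all genes in that group 91.7% had a negative log2 fold change, and 62.6% had both *Mef2c*-deficient values below all 3 controls. *Cox4i1*, the subunit 4 isoform found in most tissues, was at 79973, 87211 and 104983 in control and 44096 and 67634 in *Mef2c*-deficient pro-B cells. Its log2 fold change was −0.72 ± 0.31 (adjusted p = 0.177). *Cox5a* was at 120552, 109963 and 76884 in control and 69189 and 70984 in *Mef2c*-deficient pro-B cells, with a log2 fold change of −0.52 ± 0.30 (adjusted p = 0.252). *Ndufa4*, a subunit first assigned to complex I, was at 89892, 96473 and 60165 in control and 49042 and 50967 in *Mef2c*-deficient pro-B cells, with a log2 fold change of −0.69 ± 0.31 (adjusted p = 0.19). In these 3 genes both *Mef2c*-deficient arrays were below all controls. *Cox7a2* was at 191928, 272626 and 179305 in control and 180914 and 193657 in *Mef2c*-deficient pro-B cells, where the groups overlapped.

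The remaining genes of complex IV were mostly dim. *Cox5b* and *Cox7c*, subunits found in all tissues, were below the array median on all 5 arrays in the probe sets used here. *Cox7c* was at 66.4, 118 and 76 in control and 268 and 118 in *Mef2c*-deficient pro-B cells, and the log2 fold change of 1.08 ± 0.48 did not pass (adjusted p = 0.185). *Cox5b* was at 64.7, 67.8 and 45.7 in control and 145 and 74.8 in *Mef2c*-deficient pro-B cells, with a log2 fold change of 0.83 ± 0.40 (adjusted p = 0.206). The tissue-restricted isoforms, 7 genes, had a median log2 fold change of 0.04. The muscle isoforms *Cox6a2*, *Cox7a1* and *Cox8b* had log2 fold changes of 0.50 ± 0.81, −0.37 ± 0.38 and −0.05 ± 0.27. The testis isoforms *Cox6b2*, *Cox7b2* and *Cox8c* were at 0.06 ± 0.49, 0.04 ± 0.23 and −0.24 ± 0.36 on the same scale. *Cox7b2* was the dimmest, at 6.89, 7.42 and 7.42 in control and 7.42 and 7.42 in *Mef2c*-deficient pro-B cells. *Cox4i2*, the lung isoform of subunit 4, was at 236, 127 and 176 in control and 689 and 176 in *Mef2c*-deficient pro-B cells, with a log2 fold change of 0.998 ± 0.66 (adjusted p = 0.296). *Cox6a2*, which also marks plasmacytoid dendritic cells, was at 118, 134 and 232 in control and 91.5 and 518 in *Mef2c*-deficient pro-B cells and was above the other arrays on replicate 2. Of the other 8 measured markers of plasmacytoid dendritic cells, the summed value was 181266 on replicate 2, 123026 on replicate 1 and 54693 to 155251 on the control arrays. *Ly6d* alone made up 110498 of the sum on replicate 1, 88872 on replicate 2 and 100028 on control replicate 3. Of these 8 markers 5 were highest on replicate 2 and 1 was below all controls there. *Ndufa4l2*, a paralogue of *Ndufa4*, was below the array median on all arrays, with a log2 fold change of 0.45 ± 0.32 (adjusted p = 0.32).

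In complex V, the ATP synthase, 2 of 17 genes fell, none rose and 15 did not pass. That is 11.8%, against 16.7% of all genes and 32.8% of all genes in the brightest level group, which holds 15 of the 17. The median log2 fold change was −0.78, and in 9 genes (52.9%) the 2 *Mef2c*-deficient values were below all 3 controls, as in 28.4% of all genes. In the brightest level group this was so for 53.3% of the complex V genes and for 62.6% of all genes. *Atp5b*, the beta subunit with the catalytic sites, was at 258619.5, 206093 and 262009.9 in control and 149973 and 44578 in *Mef2c*-deficient pro-B cells, with a log2 fold change of −1.56 ± 0.56 (adjusted p = 0.141). *Atp5a1*, the alpha subunit, was at 122300, 115819 and 101065 in control and 87139 and 27320.1 in *Mef2c*-deficient pro-B cells and did not pass (log2 fold change −1.21 ± 0.54, adjusted p = 0.187). Both genes were lowest on replicate 2. *Atp5c1* and *Atp5d*, the gamma and delta subunits, had log2 fold changes of −0.90 ± 0.35 and −0.90 ± 0.31, with adjusted p = 0.157 and adjusted p = 0.13. *Atp5e*, the epsilon subunit of the same head, was at 226696, 227912 and 101481 in control and 133324 and 258421 in *Mef2c*-deficient pro-B cells. Its groups overlapped and the log2 fold change was 0.10 ± 0.53 (adjusted p = 0.894).

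The c-ring protein is encoded by *Atp5g1*, *Atp5g2* and *Atp5g3*, which share 1 mature product. *Atp5g3* was at 132962, 135264 and 192475 in control and 69393 and 23327 in *Mef2c*-deficient pro-B cells, with a log2 fold change of −1.91 ± 0.53 (adjusted p = 0.107). *Atp5g1* was at 91434, 84657 and 42449.6 in control and 43792 and 15003 in *Mef2c*-deficient pro-B cells, where replicate 1 lay within the control range, and did not pass at −1.43 ± 0.61 (adjusted p = 0.176). The probe set of *Atp5g2* was below the median on all 5 arrays. Of the 12 genes of the membrane part and the stalks 5 had both *Mef2c*-deficient values below all 3 controls, among them *Atp5pb*, of the peripheral stalk, at 37939, 31479 and 30673 in control and 18210.1 and 16417 in *Mef2c*-deficient pro-B cells (log2 fold change −0.94 ± 0.25, adjusted p = 0.102). In 7 the groups overlapped. The 5 are 41.7% of the 12, where 28.4% of all genes and 62.6% of the brightest level group had both values below all 3 controls. *Atp5k* was at 186100.1, 223859 and 124720.4 in control and 134135 and 243376 in *Mef2c*-deficient pro-B cells, and *Atp5mpl* was at 83553, 103630.2 and 69457 in control and 85252 and 79752 in *Mef2c*-deficient pro-B cells. Their log2 fold changes were 0.06 ± 0.42 and −0.03 ± 0.28. The call of *Atp5g3* ended without control replicate 3 (−1.74), and that of *Atp5b* without control replicate 1 (−1.51), 2 (−1.67) or 3 (−1.50) and without *Mef2c*-deficient replicate 2 (−0.68). Without *Mef2c*-deficient replicate 1 the number of complex V genes that fell was 6.

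The 2 *Mef2c*-deficient arrays differed in which genes lay low. The folds given here are of deposited values, where 2-fold is 1.62-fold in signal if the values are powers of e. A value at least 2-fold below the control mean was seen in 30 of the 92 genes on replicate 1 and in 38 on replicate 2, of which 16 were shared, 14 were on replicate 1 alone and 22 on replicate 2 alone. Over all genes these numbers were 2180 shared, 1816 and 2240. All 6 core genes of the matrix arm of complex I were at least 2-fold below the control mean on replicate 2 and none on replicate 1, where they were lower by 1.46-fold to 1.97-fold. On replicate 1 *Ndufs3*, *Ndufv1*, *Ndufv2* and *Ndufs7* lay close to that cut, at 1.92-fold to 1.97-fold. Of all genes 25.5% were past the cut on replicate 2 and 23.1% on replicate 1. In the brightest level group, which holds all of the 6 but *Ndufs1*, these shares were 47.6% and 41.4%. *Ndufa9*, *Uqcrfs1*, *Atp5a1* and *Atp5b* were 8.29-fold, 4.63-fold, 4.13-fold and 5.4-fold below it on replicate 2, and 1.66-fold, 1.48-fold, 1.29-fold and 1.61-fold on replicate 1. Over the 92 genes 55 were lower on replicate 2 and 36 on replicate 1, and over all genes 10242 and 6630. Of 31 accessory subunits of complexes I and III 16 were lower on replicate 1 and 15 on replicate 2. Some genes were low on replicate 1 alone. *Uqcr11*, *Ndufa1*, *Ndufv3* and *Cox6b1* were 3.18-fold, 2.44-fold, 2.91-fold and 2.02-fold below the control mean on replicate 1, and all 4 were above that mean on replicate 2. The summed T and NK cell markers were higher on replicate 2 and the hybridisation controls on replicate 1, as given above, and their part in this split was not tested.

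**Figure D5:**
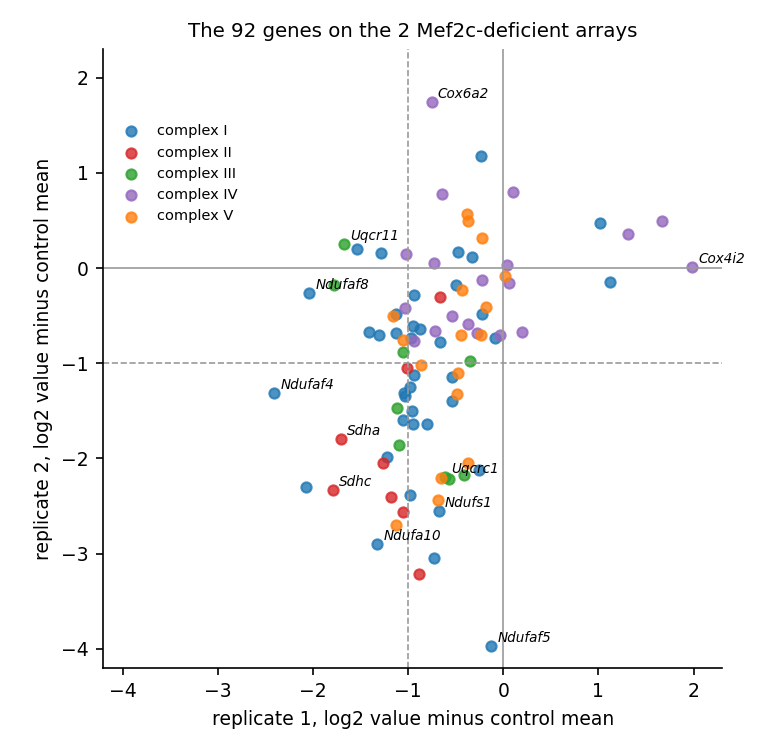
Log2 deposited value minus the control mean of each of the 92 genes on *Mef2c*-deficient replicate 1 (horizontal axis) and replicate 2 (vertical axis), coloured by complex. Dashed lines mark 2-fold below the control mean, and 16 genes lie past both, among them *Sdha* and *Sdhc*. *Ndufaf5* was lowered on replicate 2 alone, and *Uqcr11* and *Ndufaf8* on replicate 1 alone.

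Genes that work with the complexes but lie outside the naming rule were also measured. In the 4 brightest of the 10 level groups 33.3% of all genes fell, with 25.3% to 40.9% in a single group, and the counts below are to be read against that share and the 16.7% of all genes. Of 32 other assembly and stability factors 13 fell (40.6%) and none rose, with a median log2 fold change of −0.92, and 24 of the 32 lay in those 4 groups. *Cox10* and *Cox15*, enzymes that make the haem A of complex IV, fell at log2 fold changes of −1.88 and −1.95 (adjusted p = 0.0897 and adjusted p = 0.0938), while the genes of the complex IV subunits did not pass. *Cox10* was at 2323, 2137 and 1424 in control and 624 and 435 in *Mef2c*-deficient pro-B cells, and *Cox15* at 3343, 4178 and 7869 in control and 1367 and 1128 in *Mef2c*-deficient pro-B cells. *Atpaf1*, an assembly factor of the F1 head, was at 455, 625 and 835 in control and 129 and 44.4 in *Mef2c*-deficient pro-B cells, with a log2 fold change of −3.03 ± 0.56 (adjusted p = 0.0897). *Bcs1l*, which inserts the Rieske protein into complex III, was at 1932, 2388 and 1601 in control and 223 and 782 in *Mef2c*-deficient pro-B cells and fell by 2.22 (adjusted p = 0.103). *Ecsit* and *Acad9*, which act together in complex I assembly, fell at −1.95 and −1.30. *Oxa1l*, an insertase of the inner membrane, fell by 1.28. *Cox11*, *Cox16*, *Cox19*, *Coa3*, *Uqcc2* and *Atpaf2* were the others that fell.

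Of 20 genes of mobile carriers, electron entry and ubiquinone synthesis 6 fell (30%) and none rose, with a median log2 fold change of −0.49, and 13 of the 20 lay in the 4 brightest level groups. *Coq9* and *Coq7*, which act in the hydroxylation of the ubiquinone ring, fell at log2 fold changes of −1.30 and −1.72 (adjusted p = 0.0897 and adjusted p = 0.0979), and *Coq5*, a methyltransferase of the same pathway, fell by 1.54. *Etfa* and *Etfdh*, which bring electrons from fatty acid oxidation to ubiquinone, fell at −1.28 and −1.12. *Dhodh*, dihydroorotate dehydrogenase, was at 611, 643 and 626 in control and 415 and 107 in *Mef2c*-deficient pro-B cells and fell by 1.57 (adjusted p = 0.153). Cytochrome c, *Cycs*, was at 52454, 35856 and 21825 in control and 20637 and 6271 in *Mef2c*-deficient pro-B cells. The control arrays of *Cycs* spread widely, and it did not pass (log2 fold change −1.60 ± 0.66, adjusted p = 0.166).

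Of 17 regulators of respiratory gene transcription 8 fell (47.1%) and none rose, with a median log2 fold change of −1.50, and 14 of the 17 lay in the 4 brightest level groups. *Tfam*, the packaging and transcription factor of mitochondrial DNA, was at 6739, 5593 and 9281 in control and 1751 and 1558 in *Mef2c*-deficient pro-B cells, with a log2 fold change of −2.09 ± 0.31 (adjusted p = 0.0895). *Polrmt*, the mitochondrial RNA polymerase, was at 1336, 1913 and 2564 in control and 593 and 17.3 in *Mef2c*-deficient pro-B cells, with replicate 2 far below every other array, and fell by 4.21 (adjusted p = 0.14). *Nrf1*, nuclear respiratory factor 1, whose motif is shown above, was at 11239, 7774 and 14809 in control and 5504 and 2697 in *Mef2c*-deficient pro-B cells, with a log2 fold change of −1.50 ± 0.46 (adjusted p = 0.116). *Gabpa*, the ETS factor of the GA-binding protein, and its partner *Gabpb2* fell at −1.53 and −1.61 (adjusted p = 0.13 and adjusted p = 0.0938). The partner *Gabpb1* did not pass (log2 fold change −0.30 ± 0.30, adjusted p = 0.454). *Myc* was at 50347, 41281 and 22264 in control and 5783 and 7696 in *Mef2c*-deficient pro-B cells and fell by 2.43 (adjusted p = 0.0895). *Pprc1* and *Hcfc1*, coactivators, fell at −2.24 and −2.19. *Yy1* did not pass (log2 fold change −0.98 ± 0.55, adjusted p = 0.244). Of 9 housekeeping genes outside the respiratory chain 5 also fell, with a median log2 fold change of −1.03.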

How the data were processed

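The authors deposited intensity values per probe set, made by robust multiarray averaging (RMA, which adjusts background, quantile normalizes and summarizes probes) and placed on a linear scale. Versions are not given in the sources used here. The natural logarithms of the values run from 1.15 to 14.7, as log2 RMA signals would, so the values appear to be powers of e. If so, a fold of 2 in deposited value corresponds to 1.62-fold in signal. The detection filter of the authors was not applied. Of 23835 probe sets 17621 have 1 symbol, 516 have several and 5696 are unnamed. The brightest probe set of each gene was kept, and all 17323 genes were fitted on the log2 scale with limma (version 3.58.1, R 4.3.3, lmFit and eBayes) over all 5 arrays without covariates, with Benjamini-Hochberg adjustment over all genes. A gene was called at a fold of 2 and an unadjusted p of 0.05, the thresholds the study gives for its pre-B cell arrays. Its methods name limma but no fold threshold. The fit was tested on simulated data. With 3 and 2 arrays precision is limited by their number, and p-values measure only the spread between these samples. The arrays' groups came from the labels. Promoters were searched in Python 3.11.15. Alternatives were further quantile normalization, cyclic loess, centring on medians or housekeeping genes, a filter on dim genes, array weights, a variance trend, the mean of probe sets, a fold of 2 in signal, the methods' unpaired test, a replicate block, an adjusted p under 0.10 and leaving out each array. Text names every gene that was called, each cofactor-bearing or catalytic subunit, each tissue-restricted complex IV isoform, genes with a positive fold change beyond its standard error and genes whose probe sets differ in sign. Others named for illustration, the level groups, the letters of the promoter motifs and the windows shown were chosen after values were seen. The genes and lists were chosen with earlier results of these data known.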

Additional observations from a re-analysis of the deposited data

How the results depend on the processing

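The number of the 92 genes that fell, 25 with the values as deposited, was 4 after a further quantile normalization, 5 after cyclic loess, 4 with housekeeping centring, 15 at a fold of 2 in signal, 16 with the methods' unpaired test and 10 at an adjusted p under 0.10. The number that rose, 0 with the values as deposited, was 2, 2, 1 and 6 after further quantile normalization, cyclic loess, centring on array medians and housekeeping centring. The median log2 fold change, −0.84, was −0.21 after further quantile normalization, −0.020 after cyclic loess and −0.12 with housekeeping centring. The cause was not tested. With 1 array left out the number that fell was 15 to 33, the number that rose 0 to 4 and the median −0.91 to −0.71. No called log2 fold change changed sign under any alternative run. With the replicate number as a block (replicate block), 19 genes fell, 0 rose and the median was −0.91. The 2 groups share only the numbers 1 and 2, the labels do not say that a number marks a batch, and deviations of same-numbered arrays correlated at 0.12 for number 1 and −0.01 for number 2, over genes, which are not independent replicates. In complex II 1 to 6 genes fell over all alternatives, and in complex IV 0 to 2. Genes below the array median on at least 1 array, 17 of the 92, are limited by background.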

Other observations

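The 5 probe sets whose annotation lists several symbols, one of them a respiratory chain gene, were in no comparison. The probe set listed under *Ndufb4* and 2 of its copies had deposited values of 40115, 45713 and 38136 in control and 17528 and 36763 in *Mef2c*-deficient pro-B cells, so replicate 2 was close to the controls. The values listed under *Ndufa11* and a copy were 41836, 44623 and 36393 in control and 29641 and 17389 in *Mef2c*-deficient pro-B cells. Those listed under *Ndufs6* and a copy were 45012, 64174 and 38052 in control and 16398 and 38620 in *Mef2c*-deficient pro-B cells. The probe set of *Ndufab1*, the acyl carrier protein, and its pseudogene was at 27261, 19033 and 24180 in control and 6683 and 6765 in *Mef2c*-deficient pro-B cells, where both arrays were below all controls. The probe set listed under *Yjefn3* and *Ndufa13* was dim on all arrays, at 137 to 176.

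The second probe set of *Uqcr10* was at 3116, 4542 and 6846 in control and 1487 and 5245 in *Mef2c*-deficient pro-B cells. As in the probe set used above, replicate 1 was below the controls and replicate 2 lay among them. The second probe set of *Uqcrq* was at 67.8, 92.1 and 31.4 in control and 182 and 78.2 in *Mef2c*-deficient pro-B cells.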
